A study of Canis lupus familiaris with 2 samples.

Results

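Partially methylated windows are stretches of 100 kb in which CpG sites carry methyl groups in a minority of the DNA molecules. Here they are the fixed 100 kb windows of the 38 dog autosomes whose level, averaged over both libraries, was under 50%. The level of a window is its methylated calls divided by all its calls, where a call is 1 read base over a CpG cytosine after bisulfite treatment, which converts unmethylated cytosine and spares methylated cytosine. A CpG site was counted where both libraries had 5 calls or more, and a window needed 50 such sites. Of 22036 windows, 7802 (35.4%) met the rule. They covered 780.2 Mb and held 4382621 of 21087740 counted CpG sites, or 20.8%.

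The libraries came from cultures of MDCK cells, an established epithelial line from dog kidney, grown in DMEM with serum. The control was untreated. The other culture received 5 ng/ml of TGF-beta, a cytokine known to push epithelia into a mesenchymal state, and both were kept for 30 days. The labels call the control epithelial and the treated culture mesenchymal. Each group has 1 library, so no value below has a replicate check and no test across replicates exists. Calls per counted site had a window median of 27.1 in the control and 33.5 with TGF-beta within these windows, against 27.2 and 38.6 over all windows. Mitochondrial DNA, which carries little methylation and so limits how much conversion can have failed, was at 0.211% and 0.329%. Positions are in canFam3. Each interval is an exact 95% binomial interval, which covers no more than the error of counting and takes each call as independent. Neighbouring sites can be called on 1 read, so the intervals can be too narrow even for that error. Values of the treated library are called "with TGF-beta".

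As background, long partially methylated domains are known from many cultured cell lines and tumours, where they tend to replicate late and to be poor in genes. Maintenance methylation by DNMT1 copies the methyl pattern onto the new strand after each replication, and domains of this kind are held to lose methylation where that copying falls behind. CpG sites without close neighbours are known to be the most prone to this loss. Genes, replication timing and histone marks in these windows are not analysed here.

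The levels of the windows fell into a low and a high group in both libraries. In bins of 5 points, the most filled low bin was 35% to 40% in both, with 2351 windows in the control and 2142 with TGF-beta. The least filled bin between the groups was 50% to 55%, with 1193 and 1362 windows. The high group peaked at 75% to 80% in the control, with 2069 windows, and at 70% to 75% in the TGF-beta library, with 1985.

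**Figure D1:**
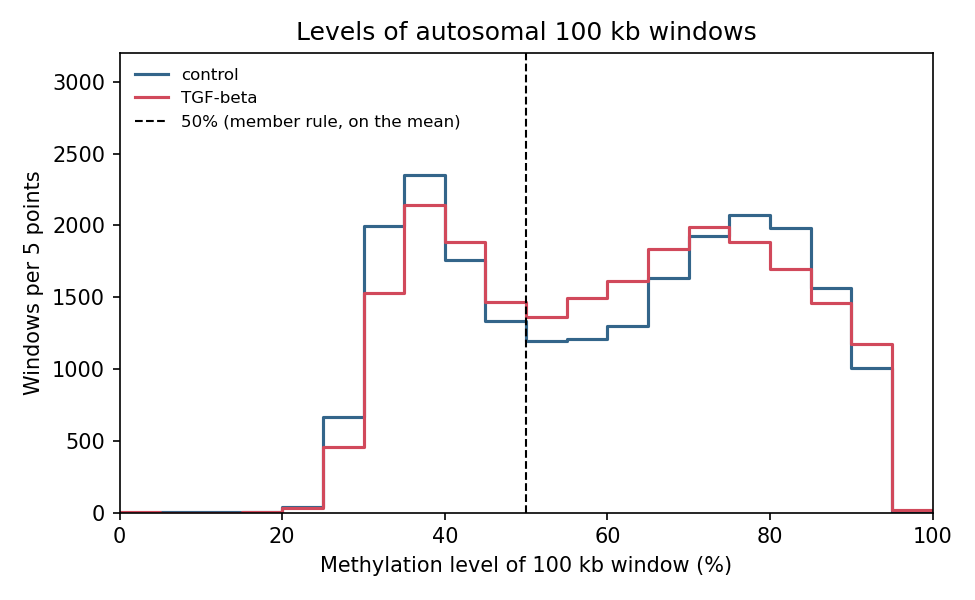
Number of autosomal 100 kb windows (vertical axis, per 5 points) by methylation level (horizontal axis, %) in the control and the TGF-beta library; the dashed line marks 50%, which the rule applies to the mean of both libraries. Both curves peak at 35% to 40% and have their lowest count between the groups at 50% to 55%, 1193 and 1362 windows.

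The following levels are those that chose the windows, so they are given as a description. The median was 37.4% (quartiles 33.4% and 42.0%) in the control and 39.3% (quartiles 34.8% and 44.5%) with TGF-beta. Most members lay in a narrow band: 5882 of them, or 75.4%, had a mean level from 30% to under 45%, 541 were under 30% and 3 under 20%. Just inside the threshold, 280 windows with a mean from 49% to under 50% had median levels of 48.5% in the control and 50.5% with TGF-beta. Just outside, the 263 windows from 50% to under 51% had medians of 49.5% and 51.4%. Both libraries were under 50% in 7291 members, only the control in 418 and only the TGF-beta library in 93. By the unweighted mean of site levels, averaged over both libraries, 158 members were at 50% or more.

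The choice of windows was repeated on the calls of 1 strand, and the windows were then described by the calls of the other strand, which come from other reads. Of 7516 windows chosen on the plus strand, 7097 (94.4%) were also under 50% on the minus strand, where their medians were 38.4% in the control and 40.02% with TGF-beta. Of 7531 chosen on the minus strand, 94.2% were under 50% on the plus strand. Among all 22020 windows compared, 7531 were under 50% by minus-strand calls. The low level was thus present in calls with no part in that choice. Both strands cover the same CpG sites in the same DNA of each library, so close agreement was likely beforehand. The check speaks to the error of counting only and is no replicate.

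The 2 members with the lowest mean level were sparse and stood apart. On chromosome 31 from 28200001 to 28300000, 82 sites gave 11.6% (9.47 to 14.0, 801 calls) in the control and 1.65% (1.05 to 2.47, 1391 calls) with TGF-beta, while the mean of its site levels was 2.47% and 2.51%. On the same chromosome from 28600001 to 28700000, 76 sites gave 9.59% and 20.9%, with site means of 6.77% and 6.79%. The site means of this pair differed by 0.0384 and 0.0220 points between the libraries, whereas summed calls differed by -9.96 and 11.3 points. Fewer than 100 sites were counted in 5 members, these included. The third lowest, on chromosome 26 from 25800001 to 25900000, rested on 665 sites and was at 20.3% (19.6 to 20.9, 13978 calls) in the control and 19.2% (18.7 to 19.7, 24294 calls) with TGF-beta.

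Members lay side by side in long runs. They formed 1382 runs of adjacent members with a median of 3 windows. Another member followed in 82.4% of members that had a counted window next to them, beside 35.4% of all windows being members. Single members made up 400 runs, and 223 runs of at least 10 windows held 53.1% of all members. Runs of 3 Mb or more numbered 19.

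The longest run, on chromosome 31 from 14300001 to 20900000, spanned 66 windows. Over its 23390 sites the level was 33.5% (33.4 to 33.6, 660108 calls) in the control and 37.7% (37.6 to 37.9, 729373 calls) with TGF-beta, and single windows ranged from 25.4% to 42.1% in the control and from 22.1% to 56.6% with TGF-beta. By the mean of site levels it was at 36.4% and 36.7%, so the libraries were close once sites counted alike. The run on chromosome 17 from 41900001 to 47100000, with 52 windows, was at 34.3% and 37.2% by summed calls and at 36.6% and 35.4% by the mean of site levels. The run of the same length on chromosome 22 from 21100001 to 26300000 was at 37.7% and 40.9% by summed calls and at 39.98% and 39.5% by site levels. In all 3 runs summed calls were higher in the TGF-beta library, and in the latter 2 the site means were lower.

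Levels differed with run length, which is a description only: run length and level come from the same values, and windows near the cutoff gather in short runs. The median control level was 45.5% in single members, 41.5% in runs of 2 to 4, 37.99% in runs of 5 to 9, 36.2% in runs of 10 to 19 and 34.8% in runs of 20 or more. The TGF-beta library had the same order, from 47.0% to 36.5%. The median number of listed CpG sites per window went from 775.5 in single members to 512 in the longest runs.

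In runs of at least 10 windows the level dropped within a few windows of the end and was then flat. The outermost members had a median of 39.9% in the control, the second 36.6%, the third 35.4%, and those from the sixth inward 34.6%. The adjoining window outside was at 56.9% and the next at 65.2%. In the TGF-beta library these medians were 41.8%, 38.3%, 37.3%, 36.2%, 58.5% and 63.7%. The rule itself places the step between members and the window outside. The interior is a description too, as the same levels set the runs. Only the longer of these runs reach the innermost places, and longer runs had lower levels. The median number of listed CpG sites also fell, from 606.5 in the outermost members to 514 from the sixth inward.

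**Figure D2:**
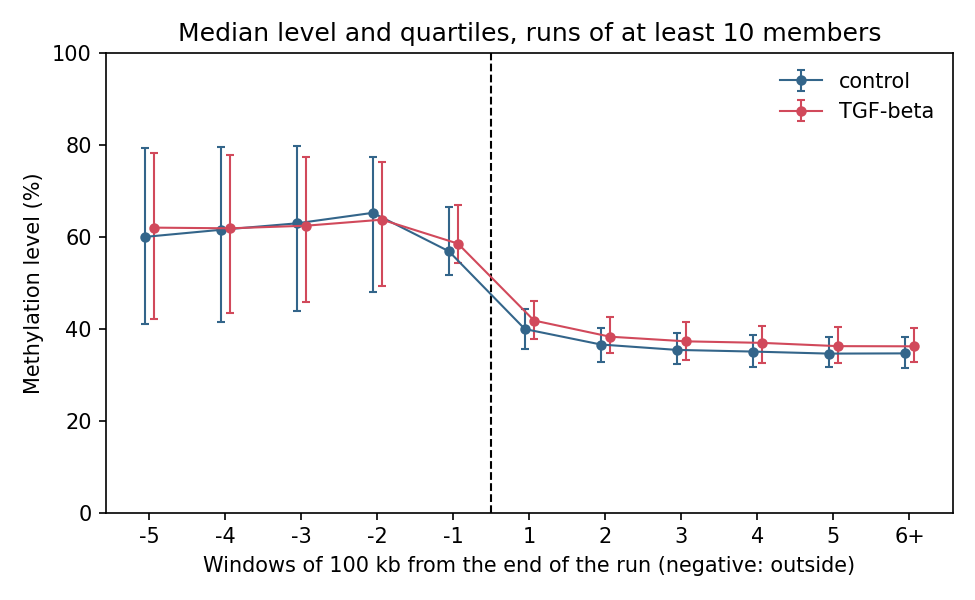
Median level (points, %) with quartiles (bars) of 100 kb windows by their place relative to the end of a run of at least 10 members, in the control and the TGF-beta library; negative places lie outside the run. From the third window inward the medians stay between 34.6% and 35.4% in the control and between 36.2% and 37.3% with TGF-beta.

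Every autosome held members, in unequal shares. The share of windows that were members was lowest on chromosome 9, at 11.0% (67 of 611), and on chromosome 2, at 18.8%, and highest on chromosome 31, at 54.3% (210 of 387), and on chromosome 22, at 53.8%. Across the 38 chromosomes the share was lower where windows listed more CpG sites (r = -0.64, Spearman's rho = -0.64, given as a description because chromosomes of 1 genome share both libraries). The median control level of the members ranged from 34.8% to 41.4% over the chromosomes, a range that the rule itself keeps narrow. With each chromosome cut into 10 equal parts, members made up between 33.5% and 40.3% of windows in the first 9 parts and 24.99% in the last, where windows also listed the most CpG sites, with a median of 1425.

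Members were poor in CpG sites. They listed a median of 586 CpG sites (quartiles 486 and 768), against 1047 in the other windows. When all windows were ranked by listed sites and cut into 5 equal groups, 74.6% of the sparsest group, with up to 550 sites, were members. In the densest group, from 1428 sites, 2.84% were. Among the members the control median went from 34.6% in the sparsest group to 47.0% in the densest, and the TGF-beta median from 36.9% to 47.7%. Over members, level and number of listed sites had r = 0.45 across windows, which share both libraries.

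Single CpG sites in the members spanned the whole range from unmethylated to methylated. Among 3618864 member sites that each library covered with at least 10 calls, 39.2% were under 20% in the control, 40.4% were from 20% to under 80% and 20.4% were at 80% or more. In the TGF-beta library the shares were 39.8%, 40.1% and 20.2%. In windows at 70% or more, the control shares were 9.30%, 17.4% and 73.3%. A partial level of a window was therefore made of sites of very different level, and not of sites that all lay near its mean.

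A stretch from the middle of the longest run shows this site by site. It was taken as the first 10 counted sites after the midpoint, on chromosome 31 from 17601133 to 17601433. The first site, at 17601133, had 0 of 13 calls methylated in the control and 12 of 31 with TGF-beta. At 17601365 there were 11 of 12 and 16 of 20 methylated calls, at 17601370 there were 10 of 12 and 16 of 20, and at 17601378 there were 11 of 11 and 18 of 20. Downstream of these the level was lower. The site at 17601398 had 8 of 11 and 10 of 21 methylated calls, and the site at 17601400 had 7 of 10 and 6 of 20. Those at 17601414 and 17601420 had 1 of 8 and 2 of 8 methylated calls in the control, and each had 5 of 20 with TGF-beta. The last 2, at 17601429 and 17601432, had 1 of 10 and 2 of 11 in the control, and 3 of 17 and 2 of 16 with TGF-beta. A high and a low group of sites thus lay side by side in both libraries.

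The pattern of high and low sites was largely shared by both cultures. Around the mean of their window, member site levels had an SD of 33.5 points in the control and 33.6 points with TGF-beta, while counting error alone gave 7.55 and 6.55 points. The covariance of both libraries, which counting error does not enter, gave a shared SD of 31.7 points. The libraries had r = 0.89 across these 3618864 sites after the window mean was taken off, against r = 0.91 in windows at 70% or more. Sites share the genome sequence and its alignment in both libraries.

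Site level followed the crowding of CpG sites. Counted by the mean of site levels, members' sites with no other listed CpG within 100 bp were at 25.1% in the control and 25.2% with TGF-beta (834861 sites). With 1 neighbour the levels were 31.6% and 31.2%, and with 2 they were 37.5% and 36.8%. With 3 to 5 neighbours they were 46.7% and 45.6%, with 6 to 9 they were 62.0% and 60.8%, and with 10 or more 63.5% and 64.0% (277218 sites). Isolated sites minus the most crowded ones gave -38.4 points in the control and -38.9 points with TGF-beta.

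Windows at 70% or more had no such slope. Their isolated sites were at 80.1% and 81.05%, those with 6 to 9 neighbours at 82.6% and 83.0%, and only those with 10 or more were lower, at 66.6% and 67.5%. By the mean of site levels, members and these windows were therefore far apart in isolated sites and close in the most crowded ones. By other measures the most crowded sites were less close. In the control their median was 76.5% in members and 88.2% in these windows, and summed calls gave 60.6% and 71.7%. The number of neighbours had no part in the rule, but the height of each curve did.

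**Figure D3:**
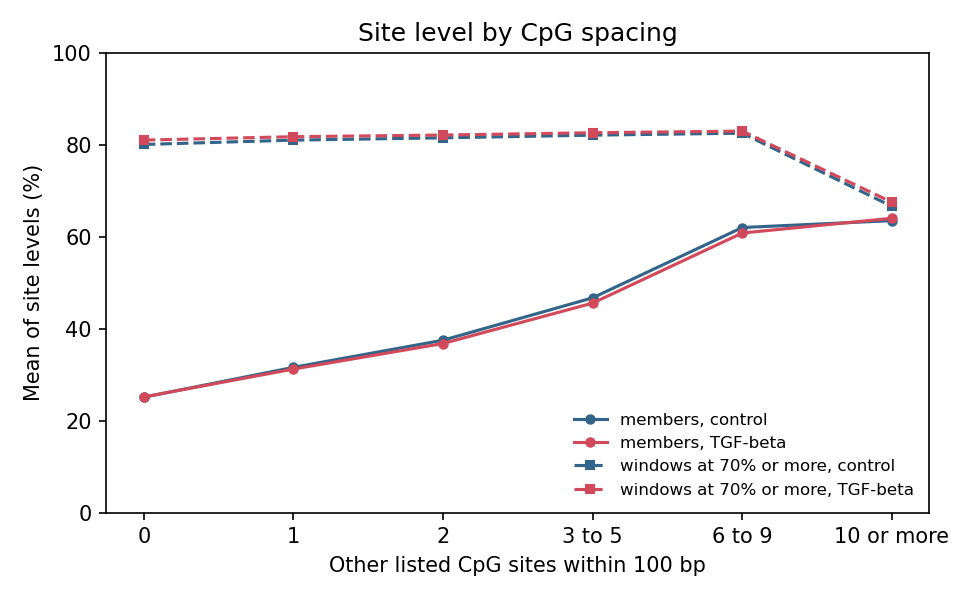
Mean of site levels (vertical axis, %) by the number of other listed CpG sites within 100 bp (horizontal axis), for the partially methylated windows (solid lines) and windows at 70% or more (dashed lines) in each library. In the partially methylated windows the level climbs from 25.1% to 63.5% in the control, whereas in the others it stays between 80.1% and 82.6% up to 9 neighbours.

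The slope was a property of nearly every member. In 7796 members with at least 20 sites of each kind, sites with at most 1 neighbour were below sites with at least 3 in 7717 (99.0%) in the control and in 7724 (99.1%) with TGF-beta. The median gap was -25.4 points in the control, and 90% of members lay between -37.3 and -14.9 points. In the TGF-beta library it was -24.6 points. In windows at 70% or more, the sparse sites were lower in 51.7% and 51.4% of 8323 windows, with median gaps of -0.397 and -0.320 points. Single windows of that kind had wide gaps in both directions. In the control, 90% of them lay between -16.8 and 28.9 points.

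By run length, which the same levels set, isolated sites differed more than crowded ones. Isolated sites had a mean level of 32.4% in single members and 23.2% in runs of 20 or more in the control, and 32.7% and 22.9% in the TGF-beta library. Sites with at least 3 neighbours were at 52.6% and 53.7% in the control, and at 52.3% and 52.0% in the TGF-beta library. Isolated sites also made up more of the counted sites in long runs, 22.8% against 13.3% in single members. By the CpG content of the window, isolated sites in the control were at 24.4% in the sparsest of the 5 groups, at 25.8% in the second densest and at 32.6% in the densest, where 125 members lay.

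The agreement of pairs of CpG sites repeated with a period of roughly 180 bp. For this, a site's level in 1 library was compared with the level of another site in the other library, so that no read was shared, after the window mean was taken off. In members, pairs at most 10 bp apart had r = 0.78. Between 41 and 120 bp agreement was lowest at 91 to 100 bp (r = 0.25). It returned to r = 0.42 at 171 to 180 bp, dropped to 0.17 at 271 to 280 bp and returned to 0.30 at 351 to 360 bp. A further low lay at 451 to 460 bp (0.14) and a further high at 531 to 540 bp (0.22). The spacing of these highs is close to the known repeat length of nucleosomes, the units in which DNA is wound on histones. Nucleosomes were not measured here, and their part in the repeat was not tested. The values of r are correlations across pairs of sites, which are not independent, and carry no test.

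The repeat was as clear among sparse sites. Among member sites with at most 2 neighbours within 100 bp, r was -0.0098 at 91 to 100 bp (52299 pairs), 0.29 at 181 to 190 bp (77819 pairs), -0.031 at 271 to 280 bp, 0.18 at 351 to 360 bp and 0.12 at 551 to 560 bp. In each of the 38 chromosomes the agreement at 171 to 190 bp, from 0.25 to 0.38, was above that at 81 to 100 bp and at 261 to 280 bp. These distances lie at the first high and the lows beside it in the pooled curve of the same pairs. The chromosomes also share both libraries, so the count is a description only.

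**Figure D4:**
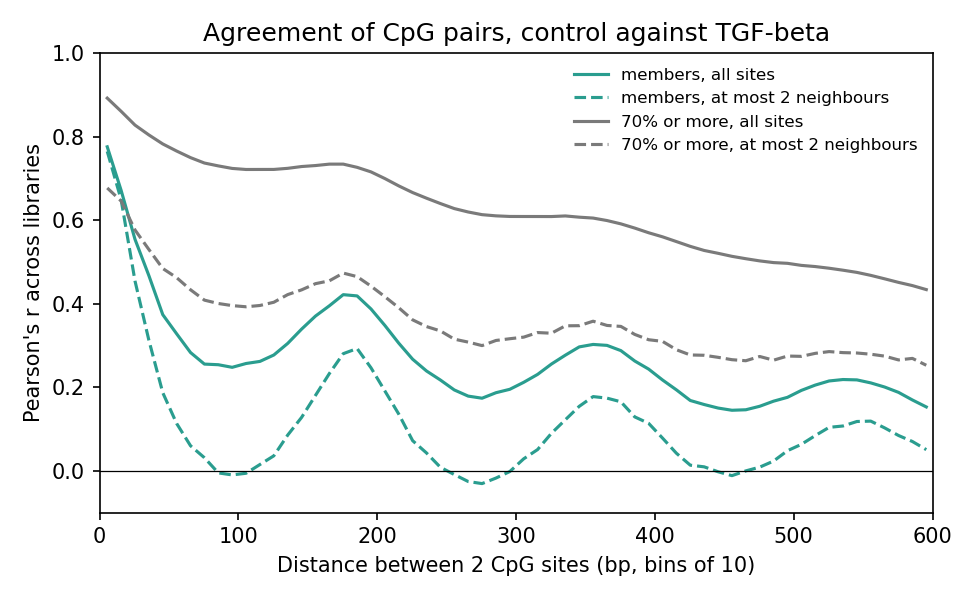
Pearson's r between the level of 1 CpG site in a library and of another site in the other library (vertical axis, window means taken off) by their distance in bins of 10 bp (horizontal axis), for partially methylated windows and windows at 70% or more, with all sites or those with at most 2 neighbours. With all sites of the partially methylated windows, highs lie at 171 to 180, 351 to 360 and 531 to 540 bp. Their sparse sites have highs at 181 to 190, 351 to 360 and 551 to 560 bp and fall to about 0 between them. All sites of the windows at 70% or more show no high at 531 to 540 bp. The sparse sites of those windows have highs at 171 to 180, 351 to 360 and 521 to 530 bp.

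In windows at 70% or more, all sites had r = 0.72 at 91 to 100 bp, 0.73 at 171 to 180 bp, 0.61 at 271 to 280 bp and 0.60 at 351 to 360 bp, with 0.48 at 531 to 540 bp and 0.47 at 551 to 560 bp. A high beyond the first was therefore hard to see in them. Sparse sites of other windows had a higher floor. By the mean level of the window, sparse sites had r = 0.27 at 171 to 190 bp and -0.030 at 81 to 100 bp in windows from 35% to under 40%. From 45% to under 50% these were 0.31 and 0.036, and from 50% to under 60% they were 0.39 and 0.20. From 80% to under 90% they were 0.46 and 0.41. Under 30% they were 0.25 and -0.041, and from 40% to under 45% they were 0.29 and -0.021. From 45% upward the gap between these distances was thus narrower in more methylated windows, whereas below 45% it was not.

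At 1 kb most stretches of members were intermediate. Of 365466 windows of 1 kb with at least 5 counted sites, 17.8% had a mean level under 20%, 80.4% lay from 20% to under 80% and 1.78% were at 80% or more. The control median was 32.8% where 5 to 9 CpG sites were listed, 43.8% for 10 to 19, 55.4% for 20 to 39 and 67.5% for 40 or more. The densest class held 4613 windows. CpG islands were not identified here, so these windows are not shown to be islands. Of these windows 445 (9.65%) were under 20% and 712 (15.4%) were at 80% or more.

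The comparison of the cultures asks whether 30 days of TGF-beta moved the level of these windows. In most of them the difference was small. By summed calls the TGF-beta library was within 5 points of the control in 82.6% of members, and by the mean of site levels in 94.99%, close to the 80.6% and 92.3% of all windows. Over all calls in members the level was 39.1% (120458164 calls) in the control and 41.002% (161250976 calls) with TGF-beta, a difference of 1.89 points.

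The sign of the small common difference depended on how sites were weighted. By summed calls the median difference of a member, TGF-beta minus control, was 1.59 points (quartiles -0.249 and 3.75), and 72.2% of members were higher in the TGF-beta library. By the mean of site levels it was -0.844 points (quartiles -1.86 and 0.278), and 29.6% were higher. In 3477 members summed calls were higher with TGF-beta while site means were lower. Summed calls had a positive median on all 38 chromosomes, and site means had a negative one on 37.

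The libraries spread their calls unequally over crowded and isolated sites. Calls with TGF-beta, divided by those of the control, came to 0.937 at isolated sites and 2.31 at sites with 10 or more neighbours, where levels are high. Sites with 3 or more neighbours took 35.6% of member calls in the control and 47.4% with TGF-beta. Within the classes, summed calls were lower with TGF-beta in 5 of 6, with differences from -1.75 to -0.785 points, and higher by 0.242 points in the most crowded. With the control's share of calls in each class the difference over members was -1.31 points in place of 1.89. With each site given a common weight in both libraries, the median difference of a member was -0.878 points.

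**Figure D5:**
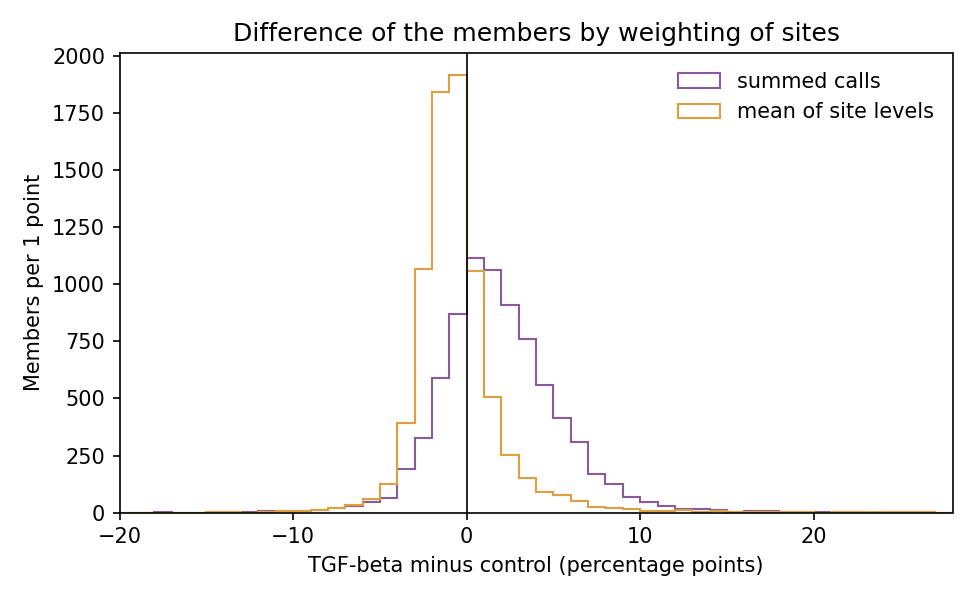
Number of partially methylated windows (vertical axis, per 1 point) by their difference, TGF-beta minus control (horizontal axis, percentage points), from summed calls and from the mean of site levels. The same windows centre on 1.59 points by summed calls and on -0.844 points by site levels.

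With sites weighted alike, members and other windows lay on opposite sides of 0. The median difference by site means was -0.844 points in members, 0.693 in all other windows and 0.729 in windows at 70% or more, and 70.01% of the other windows were higher in the TGF-beta library. On the plus strand alone the medians were -0.792 in members and 0.697 in the other windows, and on the minus strand -0.764 and 0.694. With 1 library per group these shifts of under 1 point have no replicate check, and the cultures cannot be told apart from the libraries made from them.

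Few members differed strongly. By summed calls, 144 (1.85%) were higher by 10 points or more in the TGF-beta library, where 2.39% of all windows were, and 20 (0.256%) were lower by as much, where 1.48% of all windows were. By the mean of site levels 57 members (0.731%) were higher, against 1.3% of all windows, and 15 (0.192%) were lower, against 0.567%. With common site weights 59 (0.756%) were higher, against 1.39% of all windows, and 13 (0.167%) lower, against 0.604%. When summed calls and site means both had 10 points and each strand had 5, 56 members were higher and 10 lower, or 0.718% and 0.128%, against 1.26% and 0.445% of all windows. The members' shares were below those of all windows under each of these rules. Members were chosen by the mean of the same levels, so a window low in either library and much higher in the other could fall outside. At a cutoff of 45%, 68 of 6423 members were higher by 10 points or more by summed calls and 10 were lower. At 55% these were 227 and 52 of 9123. The members' lower shares are therefore a description, and how far the rule set them was not tested.

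The 56 higher members lay on 28 chromosomes in 41 places, and the longest place had 4 windows. Their median was 37.2% in the control and 54.1% with TGF-beta, levels that come from the calls that picked them. In 45 of the 56 the TGF-beta level was 50% or more. A member on each side was present for 21 of them (37.5%), against 69.7% of all members. The choice by a large gain favours windows near the cutoff, which gather in short runs. The share with neighbours and the count at 50% or more are therefore descriptions only. The 10 lower members had medians of 50.7% in the control and 38.6% with TGF-beta, and 5 of them were at 50% or more in the control.

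The largest gain among them was on chromosome 22 from 3900001 to 4000000. It was at 31.5% (30.6 to 32.4, 10730 calls) in the control and 58.2% (57.5 to 59.0, 14986 calls) with TGF-beta, 26.7 points apart by summed calls and 25.9 by site means. On chromosome 15 from 53700001 to 53800000 the levels were 35.7% (34.7 to 36.7, 8825 calls) and 60.9% (59.9 to 61.9, 9542 calls), 25.2 points apart. On chromosome 9 from 39700001 to 39800000 they were 34.2% (33.5 to 34.9, 17969 calls) and 58.3% (57.8 to 58.9, 30697 calls), 24.1 points apart, and the window before it, at 31.3% and 54.0%, differed by 22.7 points. Each of these windows had the same direction on both strands, with at least 20.8 points on each.

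The largest loss was on chromosome 3 from 78300001 to 78400000. It was at 56.2% (55.2 to 57.1, 10333 calls) in the control and 38.8% (37.9 to 39.7, 11000 calls) with TGF-beta, -17.4 points by summed calls and -14.1 by site means. The next 2 were neighbours on chromosome 6. From 64600001 to 64700000 the levels were 47.5% (46.5 to 48.6, 9368 calls) and 33.1% (32.1 to 34.1, 8145 calls), and from 64700001 to 64800000 they were 51.6% (50.6 to 52.5, 10412 calls) and 38.2% (37.2 to 39.2, 8860 calls). This pair had 0.869 and 0.851 times as many calls with TGF-beta as in the control, against 1.23 as the median of members, and the part of that depth in the loss was not tested.

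Weighting decided some of the losses. On chromosome 27 from 31800001 to 31900000 summed calls gave 52.9% in the control and 38.3% with TGF-beta, whereas site means gave 45.1% and 45.3%. That window was chosen for its large loss by summed calls after its values were seen.

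At 1 kb, called windows inside members went in both directions. Fisher's exact test on summed calls, with adjustment over all 1374041 windows tested and at least 20 points of difference, called 10228 member windows higher in the TGF-beta library (2.80%, against 2.26% of all windows) and 8195 lower (2.24%, against 1.43%). This exact test compares 2 libraries and not the conditions. It also takes each read base as independent, so it can call too many windows. Calls in both directions were held by 2836 members, only higher ones by 2103, only lower ones by 1795 and none by 1068. The 100 members with the most higher calls held 1403 of them (13.7%), and 1 member held 41 among its 62 tested windows. Of the calls, 3150 higher also had 20 points on each strand (0.862% of member windows, against 0.872% of all windows), and 2440 lower did (0.668%, against 0.468%). By the mean of site levels 20 points were kept by 2533 higher (0.693%, against 0.892%) and 1930 lower (0.528%, against 0.447%). The members' share of higher calls was thus above that of all windows by summed calls and not under these stricter rules, while their share of lower calls was above it under all 3.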

How the data were processed

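Whole-genome bisulfite sequencing was analysed in 1 control and 1 TGF-beta library of MDCK cells, grouped by the labelled agent. The deposited files give counts: for each CpG cytosine the authors list methylated and unmethylated calls, with strands on separate lines. Per the submitters' processing notes the build was canFam3 and the tools Bismark and Bowtie 0.12.8, but SOAPaligner2 appears in the labels' protocols. Whether PCR duplicates were removed is not given in the sources used here. Duplicates, overlapping mates or calls of neighbouring sites on 1 read would make the intervals too narrow.

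The first count was taken as methylated because mitochondrial DNA is almost free of it. Positions p and p+1 were summed into 23477970 autosomal CpG sites, of which 21087931 had at least 5 calls in both libraries, with medians of 23 and 38 calls. Left out were lines without a chromosome (12 and 6 calls) and odd runs of adjacent cytosines, which pair ambiguously (0.00688% of calls). Levels were taken by summed calls and by the unweighted mean of site levels. Windows of 1 kb with at least 5 sites were compared by Fisher's exact test (both sides) with Benjamini-Hochberg adjustment, and a call needed an adjusted p under 0.05 and 20 points. The test was checked on simulated data with independent calls. That check cannot show how it behaves where calls of 1 read go together. Sites counted as neighbours if listed within 100 bp.

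The windows and tests were chosen with earlier results of these data known. Named windows are the 3 longest runs, the 3 lowest members, and the 3 largest gains and losses with 10 points by site means and 5 on each strand. The pair distances, common weights, class weights and chromosome X were added after the data were examined. Genes are not analysed here, as no annotation of canFam3 was used. The tools were numpy 2.4.6, numba 0.67.0, pandas 2.3.3, scipy 1.17.1 and matplotlib 3.10.9 under Python 3.11.15.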

Additional observations from a re-analysis of the deposited data

How the results depend on the processing

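Member numbers and runs of at least 5 windows stayed within 1.5 times their values under each alternative. The difference over all member calls, 1.89 points, became -0.556 by the mean of site levels, -0.578 with common site weights and -1.31 with the control's share of calls in each spacing class, the last 2 added after the data were examined. It was 1.40 with at least 10 calls, 1.43 on the plus strand, 1.35 on the minus strand, 1.56 and 2.11 with cutoffs of 45% and 55%, 0.948 without 1 kb windows of 20 or more listed sites and 2.00 without chromosomes 3, 6, 7 and 25. The 144 members higher by 10 points became 54 by site means (members rechosen by site means), 59 with common weights, 68 at 45% and 227 at 55%. The 20 lower became 13 with common weights, 32 on the plus and 38 on the minus strand, 10 at 45% and 52 at 55%.

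Of the 1 kb windows called, 10228 higher and 8195 lower, 1932 and 1173 had 30 points, 3150 and 2440 had 20 points on each strand (0.862% and 0.668% of member windows, against 0.872% and 0.468% of all), 2533 and 1930 had 20 points by site means (0.693% and 0.528%, against 0.892% and 0.447%), and 6253 higher were called with at least 10 calls per site. Member sites from 20% to under 80%, 40.4% in the control and 40.1% with TGF-beta, were 40.5% and 40.3% with at least 20 calls and 40.7% and 39.6% with 10 calls drawn per site. Isolated minus crowded levels, -38.4 and -38.9 points, were -38.9 and -40.3 with neighbours within 50 bp, -37.7 and -37.1 within 200 bp, -37.4 and -37.7 on the plus strand and -37.3 and -37.7 with at least 10 calls. Apart from the weightings named first, the causes of these changes were not tested. No paired analysis was possible because each group has 1 library.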

Other observations

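Chromosome X, which the rule leaves out, held proportionally more low windows than the autosomes. Of its 1239 windows of 100 kb, 692 (55.9%) had a mean level under 50%, against 35.4% on the autosomes. Their medians were 37.4% in the control and 40.96% with TGF-beta, and they listed a median of 668 CpG sites. The median difference was 3.26 points by summed calls and -0.696 by the mean of site levels, the same split of signs as on the autosomes. Over all windows of the chromosome the medians were 45.6% and 48.6%.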
